A study of Mus musculus with 2 samples.

Results

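The 10 genes of the senescence checkpoint of cultured fibroblasts described here are Cdkn2a, Cdkn2b, Cdkn2c, Cdkn1a, Cdkn1b, Trp53, Mdm2, Mdm4, Rb1 and Bmi1. They were taken by gene symbol from the deposited count table, and all 10 were found among its 17260 genes. They were selected on their read counts and TPM in these same libraries, so their levels and ratios are a description and carry no test. Messenger RNA was sequenced from mouse embryonic fibroblasts, the connective tissue cells that grow out of minced embryos. There was 1 library from cells labelled Ahi1-/- and 1 from wild-type (WT) cells. Both were C57BL/6 cells from embryos at day 13.5, grown in DMEM with 10% serum, and no other allele or treatment is given in the labels. The labels do not state the passage, the number of embryos behind each culture or the targeted exons of Ahi1. With 1 library per genotype the differences compare these libraries, and every interval covers counting error only.

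A pair of arms of this checkpoint stop the division of cultured cells. In the first, the Cdkn2a product p19Arf binds MDM2, the ubiquitin ligase that marks p53 for destruction, and p53 in turn switches on Cdkn1a, which encodes the CDK inhibitor p21. In the second, the INK4 proteins, p16 from Cdkn2a, p15 from Cdkn2b and p18 from Cdkn2c, block CDK4 and CDK6, which keeps the retinoblastoma protein RB1 bound to E2F factors. BMI1 is a Polycomb protein that represses the locus holding Cdkn2a and Cdkn2b. Mouse fibroblasts raise p19Arf and p16 as they are passaged, and cells that grow past this stage have often lost Cdkn2a or Trp53 function.

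The Cdkn2a locus has a separate promoter for each of its products. The p19Arf transcript starts 12427 bases upstream of the p16 transcript, and both are read into the same second exon in different frames. In the GENCODE M21 annotation the p16 transcript (Cdkn2a-201) is 852 bases and the p19Arf transcript (Cdkn2a-202) is 895 bases, and 575 of these bases are shared. The deposited table holds 1 value per library for the gene, so the transcripts are counted together. The sequences around both starts and that of the neighbouring Cdkn2b are shown because the counts of this locus cannot be assigned to a start. Each runs from 250 bases before to 50 bases after a RefSeq transcript start in assembly GRCm38.p6, on the minus strand. They lie at chr4:89294570-89294869 (p19Arf), chr4:89282143-89282442 (p16) and chr4:89310983-89311282 (Cdkn2b). Capitals mark the GC box (GGGCGG) and the E2F motifs TTTGGCGC and TTTCCCGC, searched on both strands.
p19Arf start: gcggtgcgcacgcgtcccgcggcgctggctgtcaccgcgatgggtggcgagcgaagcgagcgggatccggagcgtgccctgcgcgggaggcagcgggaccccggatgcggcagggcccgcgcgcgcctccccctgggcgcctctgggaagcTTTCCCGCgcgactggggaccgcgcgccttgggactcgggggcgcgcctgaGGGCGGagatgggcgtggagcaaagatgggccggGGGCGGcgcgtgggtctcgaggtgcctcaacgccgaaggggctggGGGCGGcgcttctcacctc
p16 start: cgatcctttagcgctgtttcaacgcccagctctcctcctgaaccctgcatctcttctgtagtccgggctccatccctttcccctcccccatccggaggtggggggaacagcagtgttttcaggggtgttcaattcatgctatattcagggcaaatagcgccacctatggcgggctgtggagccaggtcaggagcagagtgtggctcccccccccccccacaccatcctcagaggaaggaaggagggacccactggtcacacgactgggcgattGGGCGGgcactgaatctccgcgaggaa
Cdkn2b start: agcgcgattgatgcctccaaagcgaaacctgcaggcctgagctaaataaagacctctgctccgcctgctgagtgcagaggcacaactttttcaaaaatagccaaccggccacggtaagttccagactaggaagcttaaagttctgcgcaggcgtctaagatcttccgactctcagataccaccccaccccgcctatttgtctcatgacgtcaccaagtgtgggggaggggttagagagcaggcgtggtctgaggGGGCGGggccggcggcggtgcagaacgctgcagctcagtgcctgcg
The p19Arf window held 3 GC boxes, 1 E2F motif and 45 CpG pairs, at 77.0% G and C. The p16 window held 1 GC box and 12 CpG pairs, and the Cdkn2b window 1 GC box and 18 CpG pairs, with no E2F motif in either. Among 32851 RefSeq promoter windows of this length, 35.7% held a GC box and 1.56% an E2F motif, and the median was 7 CpG pairs.

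Cdkn1a also has an upstream and a downstream start, 2790 bases apart on the plus strand, at chr17:29090729-29091028 and chr17:29093519-29093818. They are shown because Cdkn1a is the classical p53 target of the set and was the member with the largest upward ratio. Capitals mark full matches to the p53 consensus decamer, searched by that name on both strands. The decamer reads purines, then C, a pair of letters each A or T, then G and pyrimidines. A stretch with a mismatch stays in lower case, such as the one directly after the second match in the upstream window.
Cdkn1a upstream start: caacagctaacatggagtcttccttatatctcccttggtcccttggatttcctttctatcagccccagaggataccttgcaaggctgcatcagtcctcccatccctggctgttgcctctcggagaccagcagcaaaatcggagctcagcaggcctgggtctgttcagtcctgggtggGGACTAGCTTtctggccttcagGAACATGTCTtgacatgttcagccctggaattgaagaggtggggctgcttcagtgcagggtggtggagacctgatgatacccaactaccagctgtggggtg
Cdkn1a downstream start: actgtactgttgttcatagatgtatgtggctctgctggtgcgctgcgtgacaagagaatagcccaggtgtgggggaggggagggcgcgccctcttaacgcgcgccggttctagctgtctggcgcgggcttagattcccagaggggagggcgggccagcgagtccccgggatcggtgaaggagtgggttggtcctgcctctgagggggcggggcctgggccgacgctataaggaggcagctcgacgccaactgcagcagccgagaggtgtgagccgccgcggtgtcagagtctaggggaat
The upstream window held 2 decamers, GGACTAGCTT and GAACATGTCT, which begin 73 and 51 bases before the start. The downstream window held none and had 2 GC boxes, which capitals do not mark. The Mdm2 window held 1 decamer (GAACTTGCCT) and the Trp53 window 1 (GGACTTGCCC). A decamer was present in 8.36% of all windows, and a match is a description of letters, not of binding. RefSeq windows were found for 9 of the 10 genes, 13 windows in all, and Rb1 was not among them.

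The library labelled Ahi1-/- held 20820756 expected counts and the WT library 19067504. Scaled counts are given as CPM, counts relative to the TMM-scaled size of the library. Levels of different genes are compared only as TPM, which also divides by transcript length. Ahi1 itself had 370 counts in the library labelled Ahi1-/- and 410 in WT (log2 ratio -0.16, 95% counting interval -0.37 to 0.05). The targeted gene therefore did not check the labels. The columns are headed EXP and CON, read as experimental (Ahi1-/-) and control (WT), and every direction rests on that reading.

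Cell type markers were compared because a culture of embryo cells is a mixture. All 10 fibroblast markers were measured in both libraries, with a summed level of 38694 CPM in the library labelled Ahi1-/- and 12728 CPM in WT, and 7 were higher by 2-fold or more and 1 lower. Cartilage markers summed to 132 CPM in the library labelled Ahi1-/- and 2357 CPM in WT. All 12 were measured, 10 were lower by 2-fold or more, and Cnmd was at 0 in the library labelled Ahi1-/-. Red blood cell markers summed to 6.30 CPM in the library labelled Ahi1-/- and 457 CPM in WT. Skeletal muscle markers summed to 96.1 CPM in the library labelled Ahi1-/- and 12.5 CPM in WT, mostly from Des (1240 and 84 counts) and Acta1 (620 and 23 counts). Tnnt2 went the other way, with 22 counts in the library labelled Ahi1-/- and 127 in WT. Myf5, Myod1 and Myog were not among the deposited genes, so these markers do not show muscle cells. Neural markers summed to 143 CPM in the library labelled Ahi1-/- and 79.8 CPM in WT, mostly from Tubb3 (1318 and 428 counts) and Nes (1138 and 1053 counts). Of 7 measured, 6 had a log2 ratio above 0 and 1 below. Stmn2 had 197 counts in the library labelled Ahi1-/- and 1 in WT, while Sox2 went the other way with 10 and 83. Epithelial markers summed to 72.4 CPM in the library labelled Ahi1-/- and 46.3 CPM in WT, and 5 of the 6 that met a minimum of 50 counts in 1 library were higher by 2-fold or more. Of all genes that met this minimum, 16.0% were higher and 10.3% lower by 2-fold or more. Endothelial markers summed to 117 CPM in the library labelled Ahi1-/- and 57.9 CPM in WT, mostly from Flt1 (2185 and 837 counts). Most of the others went the other way, such as Egfl7 (117 and 236 counts). Of 7 measured, 5 had a log2 ratio below 0 and 2 above, with a median of -1.03. Macrophage and leukocyte markers summed to 33.4 CPM in the library labelled Ahi1-/- and 29.1 CPM in WT, but single markers went both ways. Of 9 measured, 5 had a log2 ratio below 0 and 4 above, with a median of -0.53. Epithelial Cldn4 and Krt5, neural Elavl4 and muscle Myh3 were at 0 in WT, while endothelial Tie1 and neural Dcx were at 0 in the library labelled Ahi1-/-. In bulk RNA, fewer cells of a type and less RNA per cell cannot be told apart, and the part of these mixtures in the values that follow was not tested.

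The checkpoint genes differed in both directions, also within the INK4 and CIP/KIP families. Cdkn2a and Cdkn2c were much lower in the library labelled Ahi1-/-, Cdkn1a and Mdm2 were higher, and Trp53, Mdm4, Rb1 and Cdkn2b differed little. All 10 reached 50 counts in 1 library or both, the minimum that 12075 genes met (the compared genes). By 2-fold or more, 2 members were higher in the library labelled Ahi1-/-, as were 16.0% of the compared genes, and 3 were lower, as were 10.3%. The other 5 lay within 2-fold. By 4-fold or more, 0 members were higher and 2 lower, beside 8.93% and 2.48% of the compared genes. The members' median log2 ratio was -0.45, beside -0.04 over all compared genes. Since the members were chosen with these ratios known, nothing about the set is read from these shares.

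**Figure D1:**
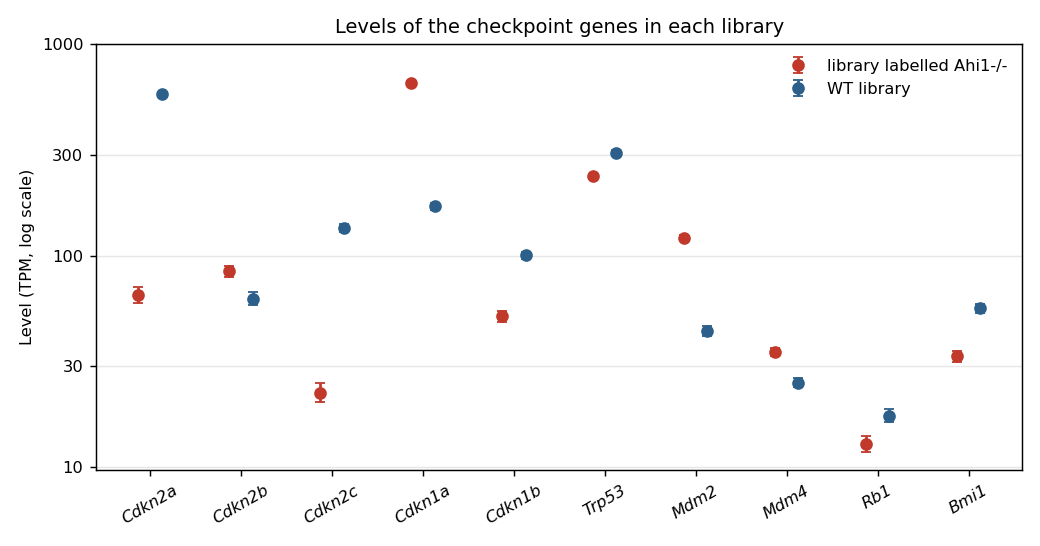
Level of each of the 10 genes in TPM on a log axis, with the library labelled Ahi1-/- in red on the left of each pair and WT in blue on the right. Bars are 95% Poisson intervals for counting error of the 1 library per group. Cdkn2a stands at 65.2 TPM in red and 579 TPM in blue, and Cdkn1a at 653 TPM in red and 171 TPM in blue.

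Cdkn2a had the largest difference of the set. It had 512 counts in the library labelled Ahi1-/- and 4735 in WT, which are 25.6 and 239 CPM, and 65.2 and 579 TPM. This is 9.33-fold lower (log2 -3.22, interval -3.36 to -3.09). Only 123 of the 12075 genes had a lower ratio. In the library labelled Ahi1-/- its TPM stood below those of Cdkn1a, Trp53, Mdm2 and Cdkn2b, and in WT it was the highest of the 10. The authors' FPKM table also lists the gene, with 28.6 FPKM in the library labelled Ahi1-/- and 284 FPKM in WT.

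The number of counts per TPM is proportional to the transcript length behind a TPM value, so it can differ between libraries where the mix of transcripts does. For Cdkn2a it was 7.86 in the library labelled Ahi1-/- and 8.18 in WT. Relative to the median of 8019 genes with at least 10 TPM in both libraries, the ratio of the library labelled Ahi1-/- over WT stood at -1.63%, toward a shorter length. The interquartile range over those genes was -0.21% to 0.15%, while 16.1% lay further from the median than Cdkn2a. For Cdkn2b the same value was 0.004% and for Cdkn1a 0.11%. These values do not give the share of p16 and p19Arf transcripts, which was not analysed here.

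The nearest neighbours of Cdkn2a on chromosome 4, Cdkn2b and Mtap, were not lower in the library labelled Ahi1-/-, while a predicted gene with few counts was. Cdkn2b, which encodes p15 and is the next gene on the same strand, had 1035 counts in the library labelled Ahi1-/- and 788 in WT. It was 1.30-fold higher (log2 0.38, interval 0.25 to 0.52), at 84.2 TPM in the library labelled Ahi1-/- and 62.6 TPM in WT. Mtap, a methionine salvage enzyme on the other side of Cdkn2a, had 2404 counts in the library labelled Ahi1-/- and 2375 in WT (log2 0.00, interval -0.08 to 0.09). Among the next measured genes, Caap1 had 219 counts in the library labelled Ahi1-/- and 222 in WT, and Tusc1 had 176 and 103. The interferon-like predicted gene Gm13275 had 60 counts in the library labelled Ahi1-/- and 68 in WT. The other neighbours did not reach 50 counts in either library. The predicted gene Gm13288 had 8 counts in the library labelled Ahi1-/- and 24 in WT (3.03-fold lower, log2 -1.60, interval -2.96 to -0.40). Elavl2, a neuronal RNA-binding protein, had 38 counts in the library labelled Ahi1-/- and 8 in WT (4.71-fold higher, log2 2.23, interval 1.11 to 3.55). The 762 compared genes of chromosome 4 had a median log2 ratio of -0.02.

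Cdkn2c, which encodes p18 and lies elsewhere on chromosome 4, was the other INK4 gene with a large difference. It had 379 counts in the library labelled Ahi1-/- and 2311 in WT, or 22.5 and 135 TPM. This is 6.15-fold lower (log2 -2.62, interval -2.78 to -2.46), and 175 of the 12075 genes had a lower ratio. Cdkn2d, the remaining INK4 gene, which encodes p19Ink4d and is not one of the 10, was 1.70-fold lower (373 counts in the library labelled Ahi1-/- and 627 in WT).

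The make-up of the summed transcripts of the INK4 genes therefore differed between the libraries. All Cdkn2a transcripts are counted here, including those of p19Arf, which is not an INK4 protein. The share of INK4 transcripts proper is not known. The 4 genes summed to 205 TPM in the library labelled Ahi1-/- and 832 TPM in WT. Cdkn2a made up 31.8% of that sum in the library labelled Ahi1-/- and 69.6% in WT. Cdkn2b was the most abundant INK4 gene in the library labelled Ahi1-/-, with 41.0% of the sum, against 7.53% in WT.

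Among the CIP/KIP inhibitors, which bind cyclin and CDK complexes more broadly, Cdkn1a and Cdkn1b went opposite ways. Cdkn1a had 11147 counts in the library labelled Ahi1-/- and 2982 in WT, or 653 and 171 TPM. It was 3.70-fold higher (log2 1.89, interval 1.83 to 1.95) and had the highest TPM of the 10 genes in the library labelled Ahi1-/-. It lies on chromosome 17, whose 603 compared genes had a median log2 ratio of -0.32, so its ratio above the chromosome's median was 2.21 on the log2 scale. Cdkn1b, which encodes p27, had 1115 counts in the library labelled Ahi1-/- and 2211 in WT, or 51.8 and 100.2 TPM.

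The ratio of Cdkn1b lay at the 2-fold line itself. The gene was 2.0-fold lower (log2 -1.0, interval -1.11 to -0.90). With DESeq2 size factors, upper-quartile scaling or TPM the gene stopped just short of that line, which left 2 members beyond it on the lower side. Bmi1, the next member by ratio on the lower side, was 1.74-fold lower and so within 2-fold.

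The CIP/KIP sum, with Cdkn1c (p57) included, was 729 TPM in the library labelled Ahi1-/- and 292 TPM in WT. Cdkn1a made up 89.6% of it in the library labelled Ahi1-/- and 58.6% in WT. INK4 and CIP/KIP genes together summed to 934 TPM in the library labelled Ahi1-/- and 1123 TPM in WT. The ratio of Cdkn1a to Cdkn2a, as TPM, was 10.0 in the library labelled Ahi1-/- and 0.295 in WT. The joint sums count all Cdkn2a transcripts, including those of p19Arf, which acts on MDM2. The total of CDK inhibitor transcripts is therefore not known for either library. By TPM the leading gene was Cdkn1a in the library labelled Ahi1-/- and Cdkn2a in WT.

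**Figure D2:**
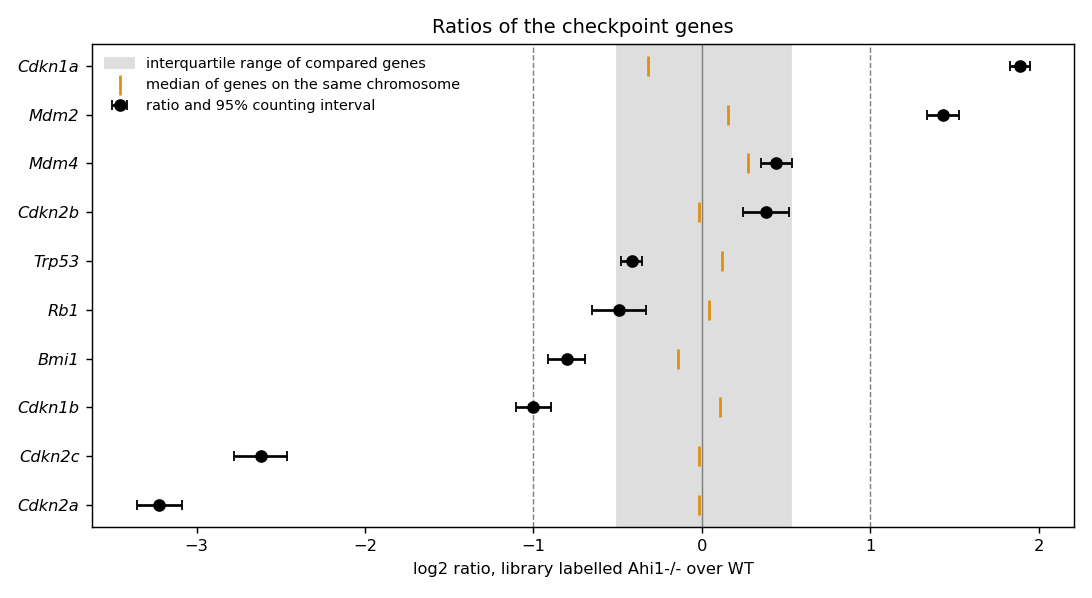
Log2 ratio of each gene, library labelled Ahi1-/- over WT, with its 95% counting interval (black), the median of the compared genes on its chromosome (orange tick) and the interquartile range of all 12075 compared genes (grey band, -0.51 to 0.53). Dashed lines mark 2-fold. Cdkn1a and Mdm2 lie to the right of the band and Cdkn2a and Cdkn2c far to its left.

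The gene for p53 differed little. Trp53 had 3770 counts in the library labelled Ahi1-/- and 4987 in WT, or 236 and 305 TPM. It was 1.33-fold lower (log2 -0.42, interval -0.48 to -0.36) and second in TPM of the 10 genes in both libraries. Counts of Trp53 transcripts say nothing of the amount of p53 protein, which is set mainly by its degradation.

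The 2 MDM genes, which restrain p53, were both higher in the library labelled Ahi1-/-. Mdm2, a p53 target as well as its ubiquitin ligase, had 3437 counts in the library labelled Ahi1-/- and 1261 in WT, or 121 and 43.9 TPM. This is 2.70-fold higher (log2 1.43, interval 1.34 to 1.53). Mdm4, a relative that binds p53 without strong ligase activity of its own, had 2284 counts in the library labelled Ahi1-/- and 1667 in WT, or 35.0 and 25.1 TPM. It was 1.36-fold higher (log2 0.44, interval 0.35 to 0.53), but its chromosome 1 had a median of 0.28, which leaves 0.16 above that median. Mdm2 transcripts stood to Trp53 transcripts at 0.511 in the library labelled Ahi1-/- and 0.144 in WT, as TPM. Mdm2 had fractional deposited counts, which the other 9 genes did not have.

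Rb1 and Bmi1 were both lower in the library labelled Ahi1-/-. Rb1, the pocket protein on which the INK4 arm ends, had 543 counts in the library labelled Ahi1-/- and 757 in WT, or 12.9 and 17.5 TPM (log2 -0.49, interval -0.65 to -0.33). It had the lowest TPM of the 10 genes in both libraries. Bmi1 had 1097 counts in the library labelled Ahi1-/- and 1896 in WT, or 33.5 and 56.3 TPM (log2 -0.80, interval -0.91 to -0.69). Bmi1 and its target Cdkn2a were lower in the same library.

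No member's counting interval included a log2 ratio of 0, which at this depth is a weak criterion. Trp53, Mdm4, Rb1 and Cdkn2b lay inside the interquartile range of all compared genes (-0.51 to 0.53), so differences of their size were common between these libraries. Adjacent genes in the order of levels had separate counting intervals except for Mdm4 and Bmi1 in the library labelled Ahi1-/- and Cdkn2b and Bmi1 in WT.

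**Figure D3:**
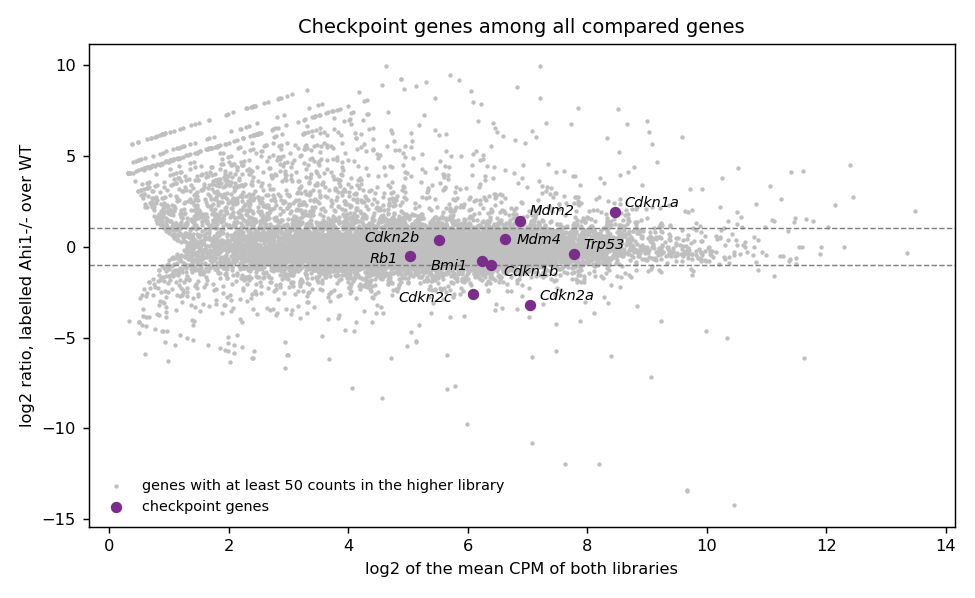
Log2 ratio, library labelled Ahi1-/- over WT, against the log2 of the mean CPM of both libraries for the 12075 compared genes (grey) and the 10 checkpoint genes (purple). Genes at 0 in 1 library are drawn with a floor of 3 counts. Cdkn2a and Cdkn2c lie below and Cdkn1a and Mdm2 above the dense band between the dashed 2-fold lines.

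Other genes of the same machinery were compared through lists of the pathway. Of 5 other CDK inhibitors and pocket proteins, 2 were lower by 2-fold or more in the library labelled Ahi1-/- and 0 higher. Among all compared genes, 10.3% were lower and 16.0% higher by 2-fold or more. Rbl1, which encodes the RB relative p107, was 2.14-fold lower (763 counts in the library labelled Ahi1-/- and 1618 in WT). Cdkn3, a phosphatase that acts on CDKs, was 2.12-fold lower (192 and 404 counts). The list had a median log2 ratio of -0.76.

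Known repressors of the Cdkn2a locus lay on both sides of 0, with 13 below and 8 above. Of 21, 2 were higher by 2-fold or more in the library labelled Ahi1-/- and 3 lower. Over all compared genes the shares were 16.0% and 10.3%, so nothing about the list is read from these counts. The median log2 ratio was -0.25. The T-box factors Tbx3 and Tbx2, which repress p19Arf, were the higher ones, Tbx3 with 754 counts in the library labelled Ahi1-/- and 49 in WT (15.3-fold), Tbx2 with 114 and 12 (9.42-fold, log2 interval 2.37 to 4.23). The Polycomb protein Cbx7 had 39 counts in the library labelled Ahi1-/- and 391 in WT (10.1-fold lower). The other lower ones were Id1, a dominant-negative helix-loop-helix protein, with 868 counts in the library labelled Ahi1-/- and 2229 in WT (2.59-fold), and the Polycomb methyltransferase Ezh2 with 744 and 1821 (2.47-fold). Both T-box factors are also patterning genes of limb and trunk.

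Of 11 known activators of the locus, 1 was higher by 2-fold or more in the library labelled Ahi1-/- and 1 lower. Beside shares of 16.0% and 10.3% over all compared genes, these counts are not read as a trait of the list. The median log2 ratio was -0.06. Tgfb2, a TGF-beta ligand that raises p19Arf in the mouse eye, was 5.19-fold higher (1167 counts in the library labelled Ahi1-/- and 223 in WT). E2f1, which induces p19Arf, was 2.10-fold lower (942 and 1962 counts).

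Regulators of p53 and MDM2 were mostly a little lower in the library labelled Ahi1-/-. Of 24 measured genes, 20 lay below 0, and the median log2 ratio was -0.60, beside -0.04 over all compared genes. Of the 23 that met the minimum count, 2 were lower by 2-fold or more and 0 higher, beside 10.3% and 16.0% of all compared genes. The DNA damage kinase Chek1 was 2.96-fold lower (252 counts in the library labelled Ahi1-/- and 739 in WT), and the acetyltransferase Kat5 2.57-fold lower (596 and 1518). Kat5 lies on chromosome 19, where the median log2 ratio was -0.66.

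Downstream of p53, 15 of 28 targets were higher by 2-fold or more in the library labelled Ahi1-/- and 2 lower (median log2 ratio 1.24). Over all compared genes these shares were 16.0% and 10.3%. The largest ratios were those of Eda2r (804 counts in the library labelled Ahi1-/- and 9 in WT), Gdf15 (228 and 6) and Pmaip1 (367 and 26). Their log2 ratios were 6.47 (interval 5.54 to 7.60), 5.23 (4.09 to 6.70) and 3.81 (3.23 to 4.44), and all rest on few WT counts. Downstream of RB1, 21 of 25 E2F targets were lower by 2-fold or more and 1 higher (median -1.30), beside 10.3% and 16.0% of all compared genes. The lowest ratios were those of Cdt1, Mcm5 and E2f2, with log2 ratios of -2.46, -2.25 and -1.96.

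Among the D cyclins, which drive CDK4 and CDK6, Ccnd1 and Ccnd2 were higher by 2-fold or more in the library labelled Ahi1-/- and Ccnd3 was not. Of 8 G1 cyclins and CDKs, 3 were higher by 2-fold or more and 1 lower, beside 16.0% and 10.3% of all compared genes. Ccnd2 had 16749 counts in the library labelled Ahi1-/- and 811 in WT (20.5-fold higher), and Ccnd1 had 3314 and 159 (20.7-fold higher). Ccnd3 had 4088 counts in the library labelled Ahi1-/- and 3246 in WT (1.25-fold higher). The cyclin E genes, both of which E2F induces, went opposite ways. Ccne1 had 937 counts in the library labelled Ahi1-/- and 443 in WT (2.10-fold higher), and Ccne2 had 625 and 1314 (2.12-fold lower).

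The list on turnover of p21 and p27 proteins had 1 of 13 members lower by 2-fold or more and 0 higher. It also holds Foxo transcription factors, which are not turnover genes. The shares over all compared genes were 10.3% and 16.0%. The median log2 ratio was -0.31. Dtl, the adaptor that directs p21 to its ligase, had 519 counts in the library labelled Ahi1-/- and 1399 in WT (2.72-fold lower).

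Of 16 senescence-associated genes, 12 were higher by 2-fold or more in the library labelled Ahi1-/- and 1 lower. Over all compared genes the shares were 16.0% and 10.3%. The median log2 ratio was 2.06. The stromelysin Mmp3 was 198-fold higher (9167 counts in the library labelled Ahi1-/- and 46 in WT), Igfbp5 188-fold (14570 and 77) and the decoy receptor Tnfrsf11b 56.2-fold (1077 and 19). Lmnb1, the lamin whose loss marks senescent cells and the 1 lower member, had 1283 counts in the library labelled Ahi1-/- and 4038 in WT (3.18-fold lower) and was named after its value was seen. Several of the secreted products on this list are also general products of fibroblasts. Most fibroblast markers were higher in the same library, and a link between these values was not tested.

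**Figure D4:**
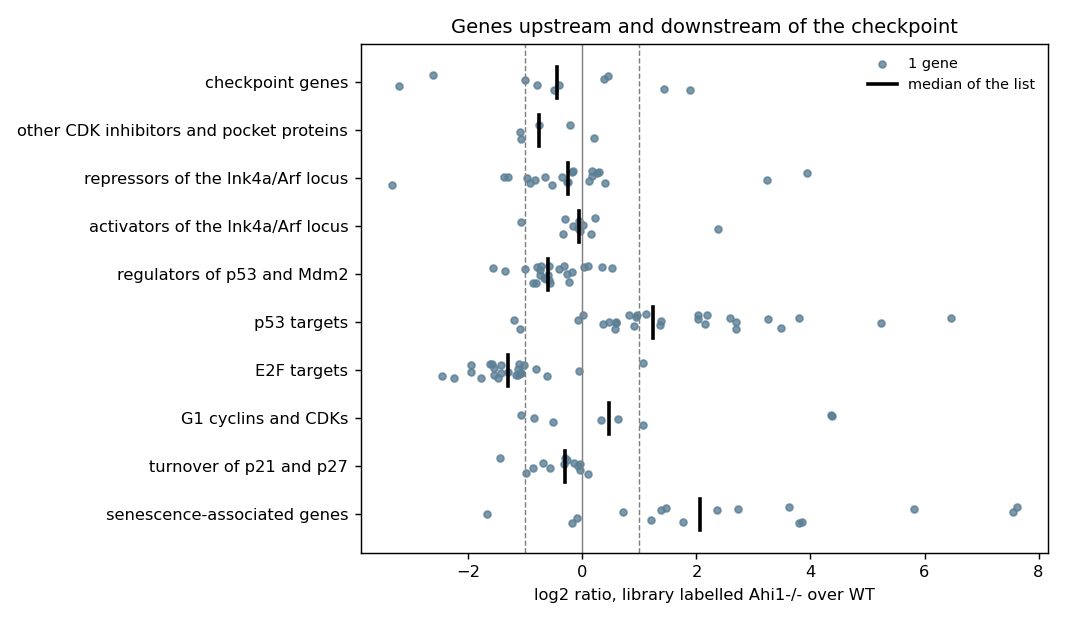
Log2 ratio, library labelled Ahi1-/- over WT, of each measured gene (blue points, at least 10 counts summed over both libraries) in each pathway list, with the list's median (black bar) and dashed lines at 2-fold. Points are spread vertically for legibility. The p53 targets centre on 1.24 and the E2F targets on -1.30, while the repressors and activators of the Cdkn2a locus have medians of -0.25 and -0.06. By 2-fold or more, 2 of the 21 repressors are higher and 3 lower, and 1 of the 11 activators is higher and 1 lower.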

How the data were processed

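The main table, as deposited by the authors, holds 1 column of expected counts per library. Of these values, 64.4% were whole as written in the library labelled Ahi1-/- and 65.1% in WT. The authors' TPM values stand beside them, per the file headers. A second deposited table gives FPKM for 3872 genes. The smallest absolute log2 ratio among the 3578 of them above 0 in both libraries was 1.00, and it lists 5 of the 10 members. RSEM 1.2.12, Bowtie2 2.2.5, HISAT2 2.0.4 and the build mm8 appear in the submitters' processing notes, without roles. Annotation, strand and filters were not given in the sources used here.

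Expected counts were rounded to whole numbers and scaled by TMM (edgeR 4.0.16, R 4.3.3) to effective sizes. Ratios are scaled counts of the library labelled Ahi1-/- over WT, with exact 95% Clopper-Pearson intervals on the share of both counts. Where 1 library had 0 counts, 3 were used in their place. Genes count as higher or lower at 2-fold or more where either library reached 50 counts, and as measured where both together reached 10. With 1 library per group no test was made. Intervals cover counting error only. The calculation was run on simulated counts that held counting error only. That run checks the calculation and says nothing of differences between cultures.

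The members and lists were chosen with earlier results of these data known. Named are all members, Ahi1, up to 3 genes a list with the largest absolute log2 ratio among those at least 2-fold apart, and the 3 nearest measured genes on each side of Cdkn2a and Cdkn2b, by their order in GRCm38.p6, where 17210 of the 17260 identifiers were found. Cdkn2d, Cdkn1c, Lmnb1, Id1, Ezh2, Ccnd3, Ccne1 and the cell type markers fall outside that rule and were chosen after their values were seen. Promoter windows come from RefSeq on GRCm38.p6, another build than mm8, matched by gene identifier. Python 3.11.15, pandas 2.3.3 and scipy 1.17.1 were used. Alternatives covered scaling (DESeq2 1.42.0 size factors, total counts, upper quartile), TPM or FPKM ratios, unrounded counts, chromosome medians, the fold and the count minimum.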

Additional observations from a re-analysis of the deposited data

How the results depend on the processing

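Under the scalings, TPM or FPKM ratios, unrounded counts and subtracted chromosome medians, all 65 values of single members kept their direction. Of these, 15 moved by more than the mean distance from the TMM-scaled ratio to the ends of its counting interval. Log2 ratios ranged from -3.34 to -3.15 for Cdkn2a, from -2.75 to -2.57 for Cdkn2c, from 1.77 to 2.21 for Cdkn1a, from 1.28 to 1.49 for Mdm2 and from 0.16 to 0.49 for Mdm4. Total counts shifted the median of all compared genes by -0.11, and with it the members' median log2 ratio to -0.57. At 4-fold or more, 0 members were higher and 2 lower, beside 8.93% and 2.48% of all compared genes. The FPKM ratio was chosen after seeing the data. No paired analysis was possible because each group has 1 library, and for the same reason no replicate could be left out. The counting intervals do not cover differences between cultures, which 1 library per group cannot show.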
